A study of Mus musculus with 2 samples.

Results

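Gene-desert open sites are stretches of accessible chromatin that lie far from every gene that codes for a protein. They were chosen by position in 2 DNase-seq libraries of mouse gastrocnemius. A peak of the stricter of 2 deposited peak lists was taken if its midpoint lay outside all annotated genes and over 200 kb from every start of a protein-coding gene, and if it shared at least 1 base with a strict peak of the other library. The rule kept 2390 of 82498 strict peaks in replicate 1 (2.90%) and 2383 of 88198 in replicate 2 (2.70%), and these merged into 2368 sites. Before the overlap was required there were 3087 and 3827 such peaks, of which 77.4% and 62.3% overlapped a strict peak of the other library, beside 79.2% and 73.9% of all strict peaks. That overlap is part of the rule, so the shares are a description only.

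The enzyme DNase I reaches DNA that is free of tightly packed nucleosomes, and sequencing the ends it leaves maps open chromatin. The tissue was gastrocnemius, the large calf muscle, from male B6CASTF1/J mice aged 14 days, which are hybrids of the laboratory strain C57BL/6J and the wild-derived strain CAST/EiJ. The labels give 1 group with 2 biological replicates, name the same donor entry for both and read 3x Males, with no explanation. The number of animals per library is therefore unknown. No condition was contrasted. Values are given for replicate 1 and then replicate 2, and the SD over the 2 libraries measures only the spread between them. The libraries' read totals are not used here, and no test was run over the 2 libraries, for which the smallest two-sided p of an exact sign test is 0.5. In whole tissue, fewer cells with an open site and less opening per cell cannot be told apart.

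Gene deserts are long stretches of the genome between protein-coding genes. Many of them flank genes for developmental regulators and adhesion molecules, and some hold enhancers, short elements that act on a gene's promoter over long distances. CTCF is a DNA-binding protein that anchors chromatin loops, and E-boxes are short sequences bound by basic helix-loop-helix proteins, among them the MyoD family of muscle factors. A footprint is a short run of bases within an open site that the enzyme cuts less than its surroundings, usually read as the trace of a bound protein. The labelled tissue was checked at promoters: 10 of 10 skeletal muscle genes (among them Ckm, Acta1 and Myod1) had a strict peak within 1 kb of a start in both libraries. Of 7 genes of other tissues or cell types, 2 had one, the endothelial gene Cdh5 and the connective tissue gene Pdgfra, while Alb, Krt5, Ptprc, Sox10 and Nppa had none.

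The sequences below are the plus strand of mm10 (RefSeq GRCm38.p6, strain C57BL/6J), so CAST alleles are not shown. They are the 5 sites with the highest mean signal percentile, 2 of the most remote ones, the strongest sites beside Foxo1 and Sox6, and the site at which the libraries differed most. Capitals mark bases inside footprints of both libraries.
chr8:20122145-20122320: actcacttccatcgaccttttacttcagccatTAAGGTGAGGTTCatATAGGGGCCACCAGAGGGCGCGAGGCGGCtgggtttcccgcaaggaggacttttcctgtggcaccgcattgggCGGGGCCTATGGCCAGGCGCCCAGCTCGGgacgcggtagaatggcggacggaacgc
chr10:126511601-126511820: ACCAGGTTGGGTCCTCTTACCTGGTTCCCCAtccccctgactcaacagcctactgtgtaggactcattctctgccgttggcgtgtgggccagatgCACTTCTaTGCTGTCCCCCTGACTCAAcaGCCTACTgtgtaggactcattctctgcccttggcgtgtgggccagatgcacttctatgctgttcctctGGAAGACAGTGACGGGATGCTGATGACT
chr16:25059241-25059500: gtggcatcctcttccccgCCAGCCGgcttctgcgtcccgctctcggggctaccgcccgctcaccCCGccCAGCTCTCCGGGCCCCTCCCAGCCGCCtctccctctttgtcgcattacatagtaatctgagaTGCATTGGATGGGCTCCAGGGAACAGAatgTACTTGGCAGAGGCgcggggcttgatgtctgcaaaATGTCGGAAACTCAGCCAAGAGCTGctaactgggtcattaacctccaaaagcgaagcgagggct
chr1:7397861-7398040: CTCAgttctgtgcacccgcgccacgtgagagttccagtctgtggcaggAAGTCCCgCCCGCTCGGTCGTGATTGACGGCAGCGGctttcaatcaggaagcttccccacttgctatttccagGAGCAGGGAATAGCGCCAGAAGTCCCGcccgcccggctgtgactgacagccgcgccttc
chr1:122357121-122357300: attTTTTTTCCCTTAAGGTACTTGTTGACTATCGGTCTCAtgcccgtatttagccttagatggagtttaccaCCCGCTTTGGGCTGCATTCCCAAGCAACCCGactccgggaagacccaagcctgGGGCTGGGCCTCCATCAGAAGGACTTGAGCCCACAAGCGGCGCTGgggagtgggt
chr1:102628161-102628360: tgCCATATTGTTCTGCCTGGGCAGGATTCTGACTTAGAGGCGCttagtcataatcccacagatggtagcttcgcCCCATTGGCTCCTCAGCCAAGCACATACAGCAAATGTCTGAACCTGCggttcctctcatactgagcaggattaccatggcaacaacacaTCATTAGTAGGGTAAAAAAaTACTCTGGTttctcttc
chr14:90433261-90433425: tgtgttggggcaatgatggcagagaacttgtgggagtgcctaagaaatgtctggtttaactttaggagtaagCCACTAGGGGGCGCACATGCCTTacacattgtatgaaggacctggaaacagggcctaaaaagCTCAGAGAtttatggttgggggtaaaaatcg
chr3:52601121-52601360: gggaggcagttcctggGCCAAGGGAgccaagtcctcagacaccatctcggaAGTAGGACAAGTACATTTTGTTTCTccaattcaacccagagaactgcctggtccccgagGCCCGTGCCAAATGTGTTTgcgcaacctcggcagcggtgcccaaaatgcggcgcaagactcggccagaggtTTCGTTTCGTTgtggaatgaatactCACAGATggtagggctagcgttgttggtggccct
chr7:115216901-115217120: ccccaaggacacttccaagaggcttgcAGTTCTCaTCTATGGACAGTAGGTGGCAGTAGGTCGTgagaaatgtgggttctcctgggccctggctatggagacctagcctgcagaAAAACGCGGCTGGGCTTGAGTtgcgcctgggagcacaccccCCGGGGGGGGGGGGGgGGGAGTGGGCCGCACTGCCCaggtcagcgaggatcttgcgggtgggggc
chr2:48001881-48002080: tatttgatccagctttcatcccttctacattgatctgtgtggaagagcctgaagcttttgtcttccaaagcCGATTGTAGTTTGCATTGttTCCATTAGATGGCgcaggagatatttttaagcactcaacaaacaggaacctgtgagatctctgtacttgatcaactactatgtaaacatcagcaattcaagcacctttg

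The 1st and the 7th of these sequences hold the CTCF motif, at bases 55 to 66 and 73 to 84 counted from the 5′ end of the printed strand, and all 12 bases of both matches are in capitals. The 2nd holds TGACTCA, the AP-1 motif, at bases 38 to 44 and again at 115 to 121, and only the second copy is in capitals. That sequence repeats a stretch of 44 bases without a change, starting at bases 32 and 109. The placement of reads from such copies was not analysed here. The number of capital bases ran from 31 of 165 in chr14:90433261-90433425 and 31 of 200 in chr2:48001881-48002080 to 116 of 200 in chr1:102628161-102628360.

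Open sites thinned out steadily with distance from coding genes, and those in gene deserts were sparse. Gene desert, meaning intergenic bases over 200 kb from every coding start with assembly gaps left out, made up 554 Mb or 20.9% of the gap-free genome. It held 4.31 and 4.3 sites per Mb (mean 4.31 ± 0.00893, SD, n = 2 libraries). Intergenic sequence at 1 to 200 kb from a coding start held 19.1 and 19.0, so the gene-desert density was 0.226 of that in both libraries. Within the deserts, replicate 1 had 7.61 sites per Mb at 200 to 300 kb, 5.19 at 300 to 500 kb, 2.36 at 500 to 1000 kb and 0.836 beyond that. Replicate 2 had 7.58, 5.18, 2.35 and 0.836. The libraries are close here by construction, since each site needed a peak in both. The median distance of the sites to the nearest coding start was 323.5 and 323.1 kb. Of the 2368 merged sites, 460 (19.4%) lay over 500 kb away and 63 over 1 Mb.

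**Figure D1:**
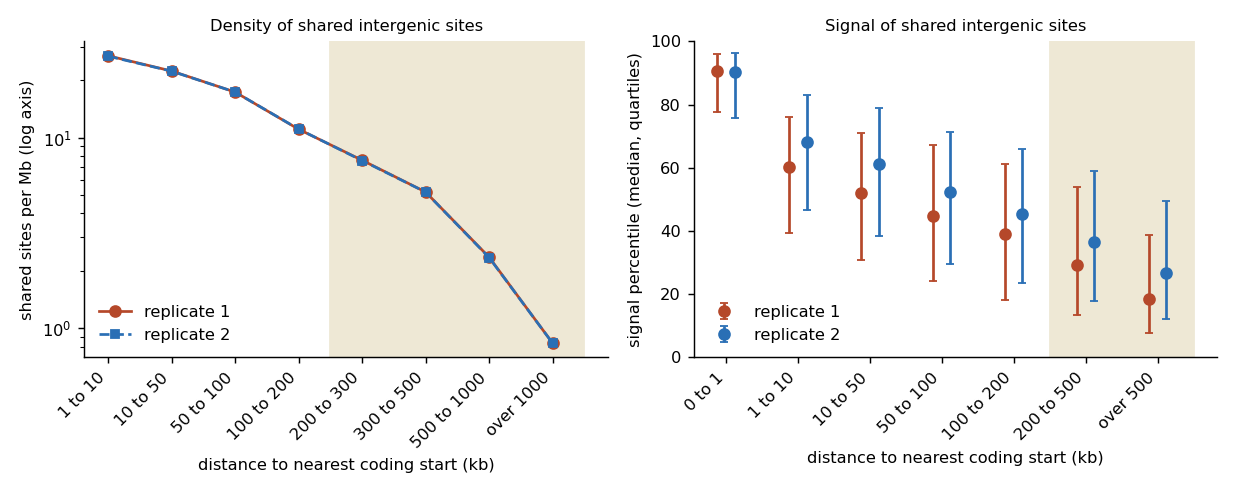
Left, shared intergenic sites per Mb (log axis) by distance from the nearest coding start in kb, for both libraries. Right, median signal percentile within each library with the quartiles as bars; shaded bins are gene-desert sites. Density and signal both go down along the distance axis, to 0.836 sites per Mb over 1000 kb and to median percentiles of 18.6 and 26.6 over 500 kb.

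The sites were mostly weak ones. The signal is the authors' own value per peak, on a scale that is not stated, and was therefore ranked within each library (100 is the strongest strict peak). Gene-desert sites had a median signal of 0.814 and 0.619, and a median percentile of 27.0 and 34.7 (mean 30.8 ± 5.47, SD, n = 2 libraries). All other shared intergenic sites, which include those at promoters, stood at percentile 62.4 and 68.2, and those at 1 to 200 kb at 50.6 and 58.6. The difference from the nearer sites was -23.7 percentile points in replicate 1 and -23.9 in replicate 2 (mean -23.8 ± 0.145). By the overlap rule both libraries hold nearly the same sites, so this small SD is a description only. Within the deserts the median percentile was 29.4 and 36.7 at 200 to 500 kb, and 18.6 and 26.6 farther out. The lowest FDR of the cut rate inside a site, a value per base deposited by the authors, had a median of 4.28e-08 and 1.78e-09 over gene-desert sites, against 1.71e-09 and 1.02e-12 over the nearer ones.

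A small set of gene-desert sites was strong in both libraries. Only 12 of 2368 ranked in the top 10% of strict peaks in each, 478 (20.2%) lay above the library median in each, and 570 (24.1%) lay in the lowest quintile in each. The strongest was chr8:20122145-20122320, with a signal of 19.7 and 15.3 (percentiles 99.6 and 99.98); it lies 218.8 kb from Gm31371 and 241.0 kb from Gm15319, both predicted genes. Next came chr10:126511601-126511820, with 13.8 and 9.22, between Lrig3 and Atp23. It was followed by chr16:25059241-25059500, with 14.0 and 8.82, which lies 227.4 kb from Tprg and 337.5 kb from Lpp, a LIM protein of focal adhesions. A pair of neighbouring sites on chromosome 1, chr1:7397861-7398040 (signal 11.3 and 7.79) and chr1:7398061-7398280 (8.99 and 5.56), stands between Pcmtd1 and Sntg1, a syntrophin of the dystrophin complex. The site chr1:122357121-122357300 had 9.68 and 10.2 and lies 789.2 kb from Ddx18, an RNA helicase, with Dpp10, a potassium channel subunit, on its other side. Site chr12:29291001-29291360 had 11.2 and 4.23 and lies 237.2 kb from Myt1l, a neuronal transcription factor, with Eipr1 beyond it on the other side. These values are high for the class: the upper quartile of gene-desert sites was at 1.30 and 0.982.

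The 5 most remote sites ranged from weak to strong. Site chr1:102628161-102628360 had a signal of 5.31 and 10.2 (percentiles 89.0 and 99.8) although it lies 2140 kb from Cdh20, a cadherin, and 2856 kb from Cntnap5b, a contactin-associated protein. It also stood among the 5 sites with most footprint bases, 116 and 135 of its 200. The most remote of all, chr18:28077881-28078160, lies 2195 kb from Pik3c3, a lipid kinase of autophagy, and 2324 kb from Celf4, an RNA-binding protein. Its signal was 1.47 and 1.02, near the middle of both lists. A neighbour at chr18:27836973-27837153 had 0.318 and 0.307, near the bottom of both. In the desert between the protocadherins Pcdh20 and Pcdh9, chr14:91889109-91889355 had 0.485 and 0.344 and lies 2000 kb from Pcdh9. There, chr14:90433261-90433425 had 0.585 and 1.16 and lies 1962 kb from Pcdh20. These 5 sites spanned mean percentiles of 3.15 to 94.4.

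Sites on either side of the 200 kb threshold had overlapping values. The 3 nearest above it were chr10:70799301-70799520 beside Phyhipl and Bicc1, with a signal of 2.57 and 1.08, chr13:52046741-52046980 beside Gadd45g and Diras2, with 1.13 and 1.05, and chrX:162359881-162360060 beside Nhs and Reps2, with 0.725 and 0.638. The 3 nearest below it, whose nearest coding genes were Rpl38, Klf4 and Phf14, had 3.40 and 1.89, 2.73 and 1.09, and 0.808 and 0.807.

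Gene-desert sites had median widths of 176 and 180 bases (mean 178 ± 2.83, SD, n = 2 libraries), close to the 180 of the nearer sites in both libraries. In sequence they were poorer in G and C, with a median GC content of 50.9% and 50%, against 55.7% and 55% for all other shared intergenic sites and 53.6% and 52.8% for the nearer ones. The ratio of CpG dinucleotides to the number expected from base composition had a median of 0.209 and 0.211, against 0.264 and 0.262 in the nearer sites. Repeats were rare: 1.67% and 1.80% of gene-desert sites were repeat-masked over at least 50% of their bases, against 2.18% and 2.13% of the nearer ones. Among all other shared intergenic sites the share was slightly lower than in the deserts, at 1.64% and 1.59%. An exception among the strong ones was chr4:67208501-67208720, between Tlr4 and Brinp1, which is 88.2% repeat-masked and had a signal of 2.63 and 1.37. A start of a noncoding gene lay within 1 kb of 93 and 94 of the sites (3.89% and 3.94%). Those stood at a median percentile of 40.8 and 42.5, against 26.6 and 34.3 for the rest of the gene-desert sites.

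Nearly all gene-desert sites held a footprint. The authors' footprint lists, at an FDR of 0.01, placed at least 1 footprint in 96.6% and 95.8% of them (mean 96.2 ± 0.571, SD, n = 2 libraries), against 97.1% and 97.0% of all other shared intergenic sites. Among sites in the same quintile of the library's signal, the difference turned round: averaged over the quintiles, the gene-desert share was 2.72 and 2.92 points above that of all other shared intergenic sites. In the weakest quintile it was 93.4% and 89.4% in gene-desert sites, against 90.1% and 86.3% in the nearer ones. Gene-desert sites of that quintile were also wider, with medians of 143 and 160 bases against 133 and 147. Footprints covered 15.0% and 12.2% of their bases, against 15.2% and 12.3% in the nearer ones. The part of width was not tested. Over all signal levels, footprints covered 18.7% and 19.6% of gene-desert bases, against 21.8% and 24.6% of bases in the nearer sites. The sites held 5912 and 6912 footprints with a median length of 10 bases, of which 62.8% and 54.2% overlapped a footprint of the other library. That share is not given here for footprints of other sites, so it is a description only. The 81 and 100 gene-desert sites without a footprint were weak, with a median percentile of 8.98 and 7.01.

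The 5 sites with the most footprint bases each were of varied width. The widest gene-desert site, chr9:41890301-41891160 with 860 bases, lies between Ubash3b and Sorl1, a sorting receptor, and had 14 and 12 footprints. Site chr9:61655481-61655980, between Tle3, a co-repressor, and Rplp1, a ribosomal protein, had 12 and 8. Site chr5:119246841-119247260, 423.6 kb from the T-box factor gene Tbx3, had 7 and 10. The repeat-rich site near Tlr4 had 3 in each library, which covered 167 and 172 of its 220 bases, and the site near Cdh20 completes the 5.

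Of 15 motifs searched on both strands in the 200 bases around each peak midpoint, the E-box CAGCTG was the most frequent. It stood in 31.5% and 30.5% of gene-desert sites, against 21.9% and 21.6% of all other shared intergenic sites, 26.2% and 25.8% of the nearer ones, and 24.5% and 21.3% of all strict peaks. Over intergenic sites its share was 11.6% and 11.2% within 1 kb of a coding start, 24.0% and 23.5% at 1 to 10 kb, and 29.1% and 29.0% at 100 to 200 kb. In the deserts it was 31.7% and 30.0% at 200 to 500 kb, and 30.6% and 32.3% farther out. Other short motifs differed by fewer percentage points, but all were rarer. Relative to their own shares, AGATAA and the MEF2 motif differed from the nearer sites by more than CAGCTG did. TGACTCA (AP-1) was in 8.74% and 8.60% of gene-desert sites, against 8.0% and 7.72% of the nearer ones. ACATTCC (TEAD) was in 4.23% and 4.20%, against 3.50% and 3.48%, and AGATAA, of GATA factors, in 6.74% and 7.05%, against 5.28% and 5.41%. ACAAAG (SOX) was in 14.3% and 14.4%, against 13.0% and 13.3%. The MEF2 motif was in 2.89% and 2.69%, against 2.27% and 2.25%. The E-box CAGGTG went the other way, with 11.0% and 10.5% of gene-desert sites against 14.5% and 14.5% of the nearer ones, as did CCGGAAG (ETS), with 1.17% and 1.13% against 2.28% and 2.23%. TAATTA (homeodomain) was in 2.85% and 3.11% of gene-desert sites. TGTGGTT (RUNX), TGTTTAC (forkhead), TCAGGTTTC (MEF3), the SRF CArG box and the NFI palindrome were each in 0.167% to 4.62%. TCAGGTTTC was in 0.586% and 0.546% (14 and 13 sites), against 0.409% and 0.373% of the nearer ones. The NFI palindrome was in 0.167% and 0.210% (4 and 5 sites), against 0.0793% and 0.0856%. A match describes the letters and is no bound site.

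The CTCF motif was less frequent in gene-desert sites than in the nearer ones. It was in 5.06% and 4.95% of gene-desert sites, against 8.05% and 8.16% of all other shared intergenic sites and 10.8% and 10.9% of the nearer ones. Over all strict peaks its share was 5.24% and 6.71%. In replicate 2 it went up with signal: 0.688% of gene-desert sites in the weakest quintile held it, then 1.98%, 4.71%, 13.0% and 18.8% in the strongest. In replicate 1 the 5 shares were 4.73%, 4.72%, 5.04%, 6.46% and 5.83%. The size of the gap to the nearer sites therefore depended on the library once signal was matched, at -4.59 points in replicate 1 and -0.790 in replicate 2. Against all other shared intergenic sites the matched difference was -3.54 points in replicate 1 and 0.595 in replicate 2, so its sign differed between libraries.

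**Figure D2:**
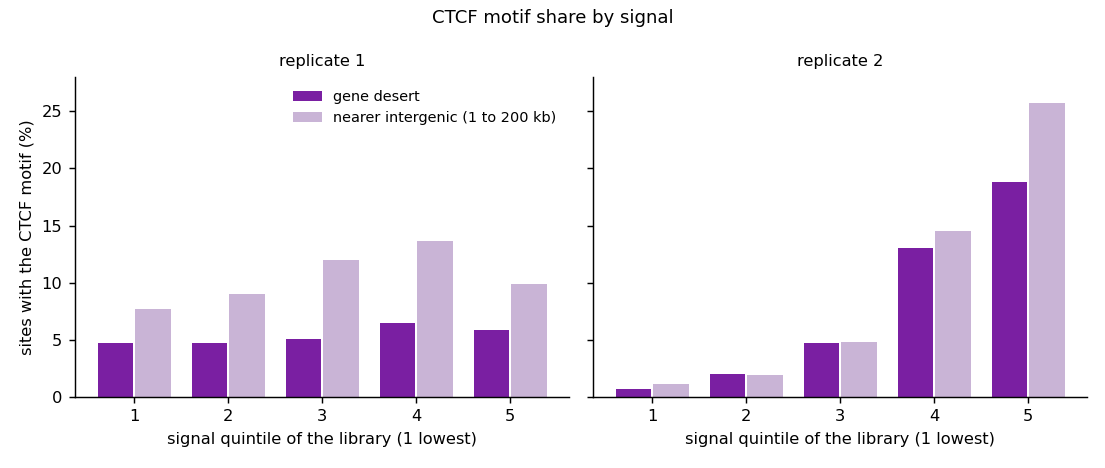
Share of gene-desert sites (dark) and of intergenic sites 1 to 200 kb from a coding start (light) that hold the CTCF motif, in percent, by quintile of the library's signal from weakest to strongest. In replicate 2 the gene-desert share runs over the quintiles to 18.8%, and in replicate 1 it stays between 4.72% and 6.46%.

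CTCF motifs lay in footprints far more often than other bases of the sites did. Of 116 matches inside the bounds of gene-desert peaks in each library, 99 (85.3%) and 112 (96.6%) had their central base in a footprint, beside the 18.7% and 19.6% of all bases that did. All 5 and all 6 matches to the palindromic motif of nuclear factor I proteins did too. For CAGCTG it was 30.9% of 865 and 27.6% of 887 matches, for CAGGTG 35.0% and 35.1%, and for CCGGAAG 8 of 21 and 8 of 24. TGACTCA, at 17.4% and 16.1%, and ACAAAG, at 15.5% and 14.4%, stood slightly below the share of all bases. AGATAA (9.32% and 9.49%) and TAATTA (2 of 53 and 5 of 78) stood well below it. The MEF2 motif had 8 of 50 and 2 of 64 in footprints. In the nearer sites, where 21.8% and 24.6% of all bases lay in footprints, the CTCF share was higher, at 95.3% and 98.4%. CAGGTG was also higher there, at 43.5% and 43.4%, while CCGGAAG was lower, at 26.6% and 28.1%. CAGCTG stood at 27.0% and 29.4%, and all 12 and all 15 matches to the NFI palindrome lay in footprints. Neither binding nor the cutting preference of DNase I for some sequences was examined here.

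**Figure D3:**
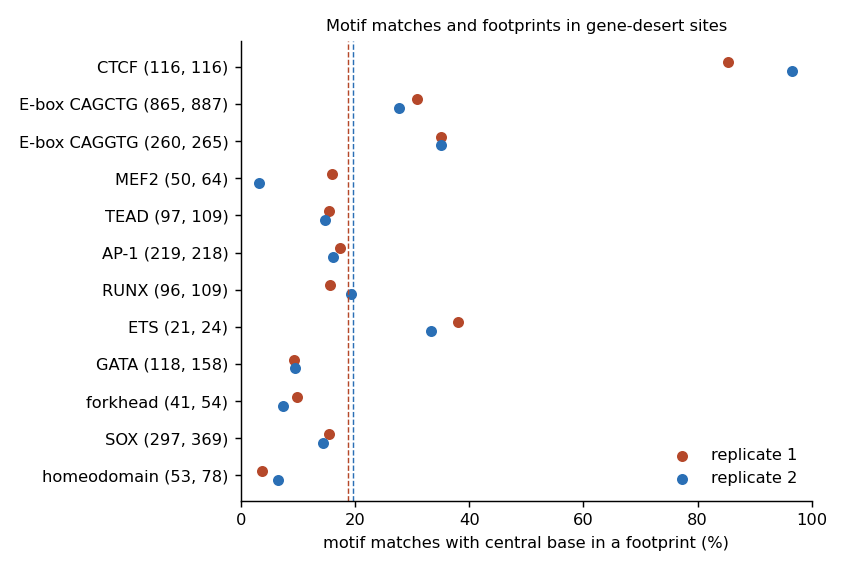
Share of motif matches in gene-desert sites whose central base lies in a footprint, in percent, for motifs with at least 20 matches in each library; the numbers of matches in replicate 1 and 2 are in parentheses. Dashed lines are the shares of all bases of the sites in footprints, 18.7% and 19.6%. CTCF stands at 85.3% and 96.6%, far to the right of the other motifs.

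Gene-desert sites with a CTCF motif ranked far higher in replicate 2 than in replicate 1. The signal of replicate 1 divided by that of replicate 2 had a median of 1.38 over the merged sites. Of the members, 88.4% in each list lay within 2-fold of the median ratio of that list. For the nearer sites it was 81.7% and 81.5%, and for all shared strict peaks 86.2% and 86.1%. The ratio needs both libraries, and the 2 lists hold nearly the same pairs of peaks. Their values are therefore not independent, and no SD is given. Spearman's rho between the libraries was 0.724 and 0.725 over the members of each list, against 0.724 and 0.724 over the nearer sites, 0.843 and 0.844 over all other shared intergenic sites, and 0.824 over all shared strict peaks in both lists. Rank agreement in the deserts was thus close to that of the nearer sites and lower than in the wider sets, as a description, since the sites share both libraries. Members with the CTCF motif had a median ratio of 0.682 in replicate 1's list, against 1.41 for those without it, and 110 of 121 (90.9%) lay below the median ratio. Their median percentile was 31.1 in replicate 1 and 70.4 in replicate 2, against 27.0 and 33.5 for members without the motif. The nearer sites had the same split, with a median ratio of 0.733 with the motif and 1.43 without it. CAGCTG leaned the other way, with 1.52 with the motif and 1.31 without it. What set the libraries apart was not tested. Per the labels, replicate 1 was sequenced on 2 instrument models.

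The ratio also moved with base composition. Over 4 groups of members of about equal number, ordered by GC content, its median was 1.09, 1.35, 1.47 and 1.61. Within these groups, members with the CTCF motif had 0.552, 0.622, 0.857 and 0.878, against 1.12, 1.37, 1.48 and 1.63 for those without it, so the CTCF split was present inside each GC group. The 5 sites with the most unequal percentiles were all stronger in replicate 2, with a GC content of 34.5% to 42.9%. At chr2:48001881-48002080, between Zeb2 and Acvr2a, a receptor for activins and myostatin, the signal was 0.485 and 2.07 (percentiles 6.79 and 79.7). Site chr16:86644941-86645179, between Adamts5, an aggrecan-cleaving protease, and N6amt1, had 0.463 and 1.67. Site chr5:68252801-68252980, between Grxcr1 and Kctd8, had 0.552 and 1.52. Site chr14:114791541-114791700, between Tpm3-rs7 and the glypican gene Gpc5, had 0.541 and 1.43. Site chr15:24589021-24589200, between Cdh18 and Basp1, had 0.546 and 1.44. None of these 5 held the CTCF motif as searched.

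**Figure D4:**
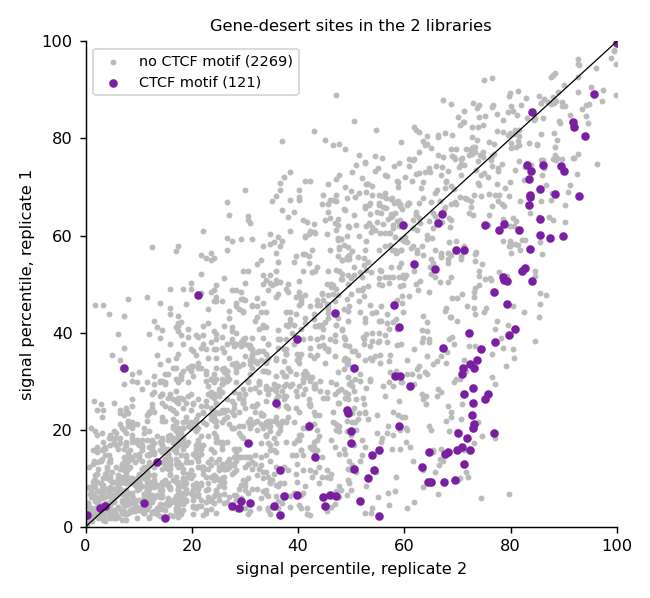
Signal percentile of each gene-desert peak of replicate 1 (vertical) against that of its partner in replicate 2 (horizontal), with the line of equality; purple points hold the CTCF motif (121) and grey points do not (2269). Most purple points lie below the line, with a median percentile of 31.1 in replicate 1.

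The sites were spread unevenly over the deserts. There were 1354 deserts, each an interval between neighbouring coding starts trimmed by 200 kb at both ends, and 605 (44.7%) held at least 1 site, with a median of 2. The 136 richest deserts, 10% of all, held 57.6% of the sites. Large deserts were poor: those of at least 1 Mb held 1.78 sites per Mb, against 7.03 in smaller ones, and 45 of 166 large deserts held none, 6 of them on chromosome Y. Distance from coding starts, along which density also fell, was not matched between large and small deserts. The largest, between Pcdh20 and Pcdh9, held 3 sites in 3.98 Mb. The next ones were Olfm4 to Pcdh17 with 7 sites in 3.94 Mb, Cntnap5b to Cdh20 with 4 in 3.81 Mb, Celf4 to Pik3c3 with 12 in 3.61 Mb, and Slc39a10 to Tmeff2 with none in 3.50 Mb.

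The richest deserts were much smaller. The desert between Med13l, a Mediator subunit, and Tbx3, a T-box factor of limb development, held 33 sites in 0.672 Mb. The one between Npvf, a neuropeptide gene, and Nfe2l3, a basic leucine zipper factor, held 26 in 0.353 Mb. That between Nox3, an oxidase of the inner ear, and Arid1b, a subunit of a chromatin remodeller, held 25 in 0.855 Mb. Zeb2 to Acvr2a held 24 in 2.81 Mb, and Dhx35 to Gm826 held 24 in 1.02 Mb. Their median mean percentiles ran from 29.4 between Zeb2 and Acvr2a to 54.6 between Npvf and Nfe2l3.

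Sites also stood close to each other. Neighbouring sites of one desert were a median of 35.4 kb apart, and 178 of 1763 neighbouring pairs (10.1%) were under 1 kb apart. Joining sites with gaps of at most 20 kb gave 142 groups of 3 or more, with 522 sites, while 1298 sites (54.8%) stood alone. The largest group, with 11 sites in 16.2 kb at chr6:51162521-51178760, lies 254.0 kb from Nfe2l3, with a signal of 0.596 to 9.67 and 0.578 to 4.20. A group of 10 at chr12:79838191-79906120 lies 207.0 kb from Zfp36l1, an mRNA decay factor, and 540.7 kb from Rad51b, a DNA repair gene. It had 1.67 to 6.33 and 0.913 to 3.53, all above the median of the gene-desert sites. A group of 9 at chr3:38175962-38255180 lies 200.5 kb from Ankrd50 and 451.6 kb from Gm5148, with 0.953 to 5.57 and 0.477 to 3.39.

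Among the chromosomes, the density was highest on chromosome 7, with 7.68 merged sites per Mb of gene desert, and on chromosome 13, with 7.61. Among the other autosomes it was between 3.45 on chromosome 14 and 6.20 on chromosome 2. Chromosome X had 1.88 (66 sites), and its sites were weak, with a median percentile of 17.3 and 20.3. Chromosome Y had 4 sites in 37.6 Mb. Male mice carry 1 copy each of X and Y, and the part of copy number in these values was not tested.

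Deserts beside muscle genes held more sites per Mb than deserts at large. A list of 43 regulators and signalling genes of skeletal muscle had 21 genes beside a desert, and 22 of those 28 deserts (78.6%) held a site, against 605 of 1354 of all deserts. They held 108 sites, or 12.6 per Mb, against 4.27 over all deserts. The median size of the 28 deserts was 0.227 Mb, against 0.172 Mb over all deserts. Size was not matched for the share that held a site. Of the 28 deserts, 26 were under 1 Mb, as were 1188 of all 1354. Among deserts under 1 Mb the density was 15.2 per Mb against 7.03. Deserts beside developmental transcription factors had 12.7 on that basis, those beside clustered receptor and enzyme families 13.5, and those beside adhesion and synapse genes 2.72. Signal was less different, with a median mean percentile of 33.8 beside muscle genes, 34.1 beside developmental factors, 22.9 beside adhesion and synapse genes, and 31.5 over all sites. The lists overlap, as in Sox6 and Nfib, and a desert beside a gene need not act on it.

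**Figure D5:**
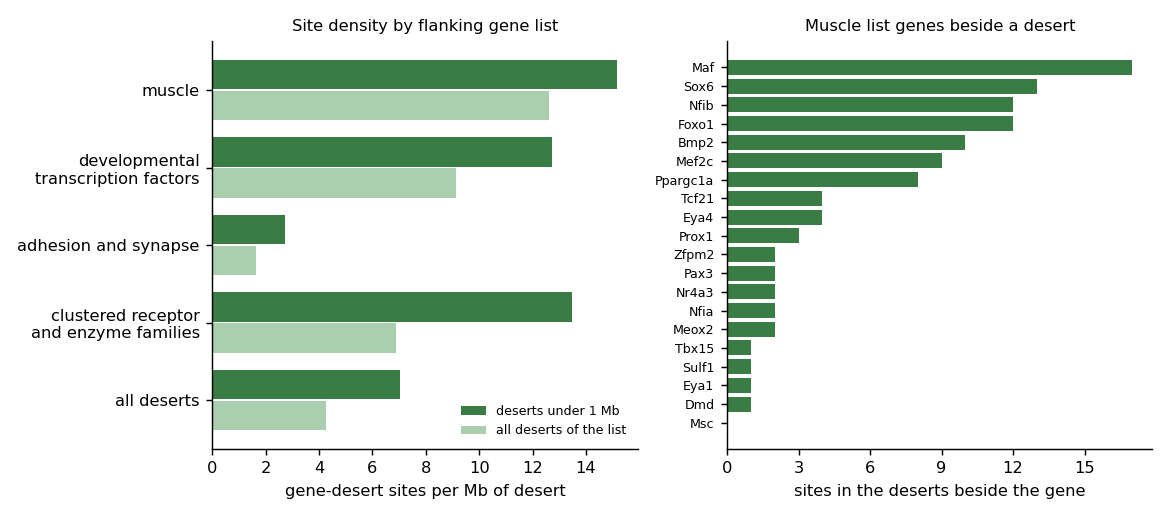
Left, gene-desert sites per Mb of desert for deserts beside the genes of each list, among deserts under 1 Mb (dark) and all deserts of the list (light). Right, number of sites in the deserts beside 20 of the 21 muscle list genes that border one; Eya4 and Tcf21 border the same desert. Muscle list deserts stand at 15.2 and 12.6 sites per Mb, against 7.03 and 4.27 over all deserts.

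Among single muscle genes, Foxo1, a forkhead factor of insulin signalling and muscle atrophy, bordered a compact and strong set. Its desert toward Cog6 held 12 sites in 0.269 Mb, 9 of them nearest to Foxo1. The strongest, chr3:52601121-52601360, lies 332.9 kb from a Foxo1 start and had a signal of 9.58 and 4.26, and the median mean percentile of the 12 was 58.9. Sox6, which represses slow-fibre genes, had 13 sites at 371.2 to 833.2 kb toward Insc, but only 3 of them were nearest to Sox6. The strongest of the 13, chr7:115216901-115217120, had 5.59 and 4.23. Maf, a basic leucine zipper factor, had 17 sites, 11 of them nearest to it and all within 560.5 kb. Its strongest had 2.65 and 0.862. Nfib, of the nuclear factor I family, had 12 sites toward Mpdz, only 3 of them nearest to Nfib. The strongest of the 12 had 2.66 and 1.56.

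Other muscle genes had fewer or weaker sites. Bmp2, a growth factor, had 10, Mef2c, a MADS-box muscle factor, had 9, and Ppargc1a, the coactivator of mitochondrial genes, had 8. Of these sites, 8, 5 and 5 were nearest to the named gene. For these 3 genes the median mean percentile was low, at 14.4, 12.1 and 18.5. The desert shared by Eya4 and Tcf21 held 4, the strongest with 2.04 and 3.71. Prox1 had 3, with a strongest of 1.78 and 1.12. Nfia, Pax3, Meox2, Nr4a3 and Zfpm2 had 2 each, and the strongest of these 10 by mean percentile, at 70.1, lies 404.4 kb from Nfia. Pax3, which marks muscle progenitors, had its stronger site at 217.9 kb, with 1.00 and 1.85. Eya1, Tbx15, Sulf1 and Dmd, the dystrophin gene, had 1 each, with mean percentiles of 1.67 to 11.6, and Msc had none. No site beside Prox1, Nfia, Meox2, Nr4a3, Zfpm2, Tbx15, Sulf1 or Dmd had that gene as its nearest coding gene.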

How the data were processed

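The deposited mm10 peaks, footprints and per-base FDR values of both DNase-seq libraries were used unchanged. The peak signal is the authors' value per peak, made from each library's own alignment and not from pooled reads, per the file headers; its scale is unstated there. FDR values (adjusted p-values) per base and the footprint FDR of 0.01 are the authors' own, as deposited, and the FDR track was cut at 0.05 before deposit, judged from its values. Aligner and peak caller, with their versions: not given in the sources used here. In the strict lists, the lowest FDR inside each peak was at most 0.001.

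Genes and starts came from GENCODE M21 (basic set, 21924 protein-coding symbols), and sequence and repeat masking from RefSeq GRCm38.p6. Signal was compared as a percentile within a library. Footprints counted from 1 shared base, and motif matches were whole matches to a fixed consensus on either strand, so near matches were not counted. No test was run: there is 1 group, an exact sign test over 2 libraries cannot go below 0.5, and sites are not replicates. Differences are given per library with their SD. Members, gene lists and motifs were chosen with earlier results of these data known. The comparison with sites at 1 to 200 kb was added after the data were examined, because all other shared intergenic sites include those at promoters. Regions named are the 8 strongest by mean percentile, the 5 most remote, the 3 nearest on each side of 200 kb, the 5 with most footprint bases, the 5 with the most unequal percentiles and the 5 richest deserts, with the coding genes beside them and the muscle list genes beside a desert, of which 1 is not reported here; the largest deserts and site groups were named after their values were seen. Printed sequences follow the same ranks, with some exceptions. The most remote site of all, on chromosome 18, was left out, so the remote ones start with the site near Cdh20. The second remote one and the Foxo1 and Sox6 sites were picked after their values were seen. The code was tested on simulated peaks, genes and motifs. Python 3.11.15, numpy 2.4.6, pandas 2.3.3 and matplotlib 3.10.9 were used.

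Alternatives were distances of 100 and 500 kb, the permissive lists, a reciprocal overlap of 50%, coding genes alone as genic, peaks at or above the median signal, footprints wholly inside a peak, windows of 100 bases, quintiles of signal and each library alone. The comprehensive annotation, leaving out chromosome Y and the nearer comparison set were added later.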

Additional observations from a re-analysis of the deposited data

How the results depend on the processing

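With 2 libraries, each value here is their mean, and a shift counted as a move if it exceeded the SD between them (for counts of sites, a factor of 1.5). That SD is very small where the overlap rule ties the libraries. For the share within 2-fold it only compares nearly the same pairs of peaks read from either list. Small shifts therefore counted too. No paired analysis was possible because there is 1 group. Over 100 kb from coding starts there were 4821.5 sites per library, 5.66% of strict peaks and 6.23 per Mb, at a median of 198.9 kb, with 86.9% within 2-fold, 51.3% GC and 1.91% repeat-rich. Over 500 kb these 7 values were 466, 0.547%, 1.88, 629.2 kb, 89.1%, 49.0% and 1.29%, with a median percentile of 22.6, a width of 172 bases and 96.8% with a footprint. The permissive lists gave 4552 sites, 3.28% of peaks and 8.22 per Mb, at percentile 36.4, 187 bases, 86.3% with a footprint, 331.2 kb, 89.2% within 2-fold and 2.79% repeat-rich. A reciprocal overlap of 50% gave 2.43%, 3.74 per Mb, 97.4% with a footprint, 325.6 kb and 88.0% within 2-fold. With only coding genes as genic it was 3.48%, 4.84 per Mb, 320.1 kb and 89.1% within 2-fold. The comprehensive annotation gave 2.49%, 4.01 per Mb, 319.6 kb and 88.5% within 2-fold. Peaks at or above the median signal gave 692 sites, 0.809%, 1.25 per Mb, percentile 66.9, 99.5% with a footprint, 297.0 kb, 81.9% within 2-fold, 51.9% GC and 0.715% repeat-rich. Without chromosome Y the density was 4.61 per Mb. Footprints wholly inside a peak were in 95.0% of sites. The cause of these shifts was not tested beyond what each setting does by construction.

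Taking the values of 1 library alone, with membership still set by the overlap of both, gave 2383 to 2390 sites, 2.70% to 2.90% of strict peaks, 4.3 to 4.31 sites per Mb, percentile 27.0 to 34.7, widths of 176 to 180 bases, 95.8% to 96.6% with a footprint, 323.1 to 323.5 kb, 50% to 50.9% GC and 1.67% to 1.80% repeat-rich. The share within 2-fold needs both libraries, and was 88.4% from either list. The close counts follow from the overlap rule; without it, 3087 peaks of replicate 1 and 3827 of replicate 2 lay in gene deserts.

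The gene-desert share with a footprint stood at -0.86 points relative to all other shared intergenic sites, and at 2.82 points within quintiles of signal. Against nearer sites alone within quintiles of signal it was 1.87 points. Site width was not matched in these comparisons. The difference in CTCF motif share was -3.10 points, -1.47 within quintiles of signal, -5.83 against the nearer sites alone and -2.69 against these within quintiles. For CAGCTG it was 9.24, 6.01, 5.01 and 4.42 points on the same 4 comparisons. Within quintiles of signal the size of the CAGCTG difference depended on the library. Against all other shared intergenic sites it was 8.36 points in replicate 1 and 3.65 in replicate 2. Against the nearer sites it was 6.78 in replicate 1 and 2.05 in replicate 2. There, the gene-desert share was the higher one in every quintile except quintile 2, counted from the weakest, of replicate 2. In windows of 100 bases CAGCTG was in 20.5% of gene-desert sites and CTCF in 4.65%, against 31.0% and 5.01% in windows of 200. Depth per library is not used here, so how it limits weak sites is unknown.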
